A study of Mus musculus with 6 samples.

Results

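RANKL, the receptor RANK and the decoy receptor osteoprotegerin form a cytokine axis of 3 genes, Tnfsf11, Tnfrsf11a and Tnfrsf11b, which were picked by symbol from the 24054 genes of a thymus count table. All 3 were among the 16096 genes that passed the low-count filter and were tested. Messenger RNA of whole thymus was sequenced in 3 libraries from K5-rtTA:TetO-RANKL mice, called RANKL below, and 3 from controls. In the first group doxycycline lets the activator rtTA, made under the keratin 5 promoter, turn on a TetO-linked RANKL transgene; controls were described as carrying 1 transgene only, and both groups received doxycycline in food and water. The labels conflict on the schedule, which is given as 1 week from 8 weeks of age in one text and as 2 weeks from 9 weeks of age in another. No label says whether each library is a separate animal, so the p-values speak only of variation among the 6 libraries, which may be technical. The 6 libraries held between 18254870 and 25357060 reads, at which 3 reads in a library corresponded to 0.122 to 0.162 counts per 1000000 reads (CPM); such floors cover counting error only.

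RANKL is a membrane-bound ligand of the TNF superfamily that can also be shed. It binds RANK, which recruits TRAF adaptors and activates both arms of NF-kB signalling, and it is the cytokine that drives osteoclast formation in bone. Osteoprotegerin is a secreted receptor without a membrane anchor that binds RANKL and keeps it from RANK. In the thymus, RANKL from developing T cells and innate lymphoid cells acts on RANK of medullary epithelial cells, where it promotes the appearance of cells that make the tissue antigen regulator Aire, and medullary epithelium is itself a known source of osteoprotegerin.

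In GRCm38, the assembly of mm10, RefSeq places Tnfsf11 (Entrez gene 21943) on chromosome 14 from 78277446 to 78308043 on the minus strand, Tnfrsf11a (21934) on chromosome 1 from 105780673 to 105849444 on the plus strand, and Tnfrsf11b (18383) on chromosome 15 from 54250619 to 54278484 on the minus strand. Each gene has 1 protein-coding transcript in GENCODE M21, with 5, 10 and 5 exons in that order of genes. No other annotated gene overlaps any of the 3. Promoter sequence from RefSeq matched 2 of the 3 members, Tnfsf11 and Tnfrsf11a, and is shown because in RANKL the Tnfsf11 transcript can come from a TetO promoter as well as from the window shown, whereas Tnfrsf11a has only its own. The windows run 5′ to 3′ from 250 bases before to 50 bases after the annotated start, at chr14:78307994-78308293 on the minus strand and chr1:105780473-105780772 on the plus strand. For Tnfrsf11a the start used for the window lies downstream of the RefSeq gene start given above. Capitals mark matches on either strand to the TATA box (letters TATAAA), to the box named after its letters CCAAT, or to the GC box (letters GGGCGG).
Tnfsf11: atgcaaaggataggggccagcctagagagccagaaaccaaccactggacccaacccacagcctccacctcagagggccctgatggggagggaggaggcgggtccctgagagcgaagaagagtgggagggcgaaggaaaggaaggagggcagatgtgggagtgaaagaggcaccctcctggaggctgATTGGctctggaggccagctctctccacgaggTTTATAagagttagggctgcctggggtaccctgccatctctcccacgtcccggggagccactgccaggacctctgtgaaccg
Tnfrsf11a: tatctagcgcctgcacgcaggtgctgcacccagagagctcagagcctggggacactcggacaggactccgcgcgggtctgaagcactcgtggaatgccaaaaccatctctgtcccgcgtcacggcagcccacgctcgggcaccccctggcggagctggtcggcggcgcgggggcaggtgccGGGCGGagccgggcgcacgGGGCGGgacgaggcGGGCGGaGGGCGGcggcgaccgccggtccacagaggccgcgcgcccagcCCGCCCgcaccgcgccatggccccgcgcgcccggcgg
The Tnfsf11 window held 1 TATA box match that began at position -32 from the start, as 13.6% of 32544 mouse promoter windows of this length did somewhere, and 1 match to the CCAAT box at -64, a motif found in 37.4%. The Tnfrsf11a window held neither, but had 5 GC boxes, a motif found in 35.9% of windows. It contained 43 CpG sites and 76.7% G and C, against 7 sites and 61.7% in the Tnfsf11 window and medians of 7 sites and 53.0% over all windows. Neither window held the AP-1 motif (TGANTCA, in 7.79% of windows) or the kappaB consensus (8.49%); these letters are absent from these windows, which says nothing about binding.

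The ligand transcript was the induced gene and was measured first. Tnfsf11 stood at 3334, 4812 and 2389.7 CPM in RANKL replicates 1, 2 and 3, from 61938, 118331 and 50710 reads, against 6.01, 6.34 and 8.89 CPM in control replicates 1, 2 and 3, from 114, 123 and 186 reads. The lowest RANKL library was 269 times the highest control library. The log2 fold change was 8.95 ± 0.39 (SE; edgeR adjusted p = 1.62e-06), 24th from the top of the 16096 genes tested. All 3 members were called higher at an adjusted p under 0.05, as were 33.8% of tested genes, with 29.6% lower and 63.4% called in either direction, and 36.1% had every RANKL library above every control library, so a call alone did not set the 3 members apart from the rest of the table. A count by gene symbol cannot tell a read of the transgene from one of the endogenous gene.

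Osteoprotegerin, the decoy receptor, rose next most. Tnfrsf11b stood at 492, 459 and 361 CPM in RANKL replicates 1, 2 and 3, against 7.59, 4.95 and 4.35 CPM in control replicates 1, 2 and 3. The groups did not overlap, and the lowest RANKL library was 47.6 times the highest control library. The log2 fold change was 6.28 ± 0.28 (SE; edgeR adjusted p = 1.77e-06), rank 146 of 16096. Its RANKL libraries were also the most alike of the 3 members, with a coefficient of variation of 15.6%, against 34.8% for both Tnfsf11 and Tnfrsf11a.

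RANK, the signalling receptor, rose least. Tnfrsf11a stood at 98.7, 48.2 and 71.2 CPM in RANKL replicates 1, 2 and 3, against 15.9, 8.76 and 7.84 CPM in control replicates 1, 2 and 3. The groups did not overlap, but the lowest RANKL library was only 3.03 times the highest control library. The log2 fold change was 2.75 ± 0.34 (SE; edgeR adjusted p = 0.000102), or 6.71-fold, rank 1738 of 16096. The library with the most ligand, RANKL replicate 2, had the least RANK of its group, and the control with the least ligand, control replicate 1, had the most RANK and the most osteoprotegerin; with 3 libraries in a group this is a description only.

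**Figure D1:**
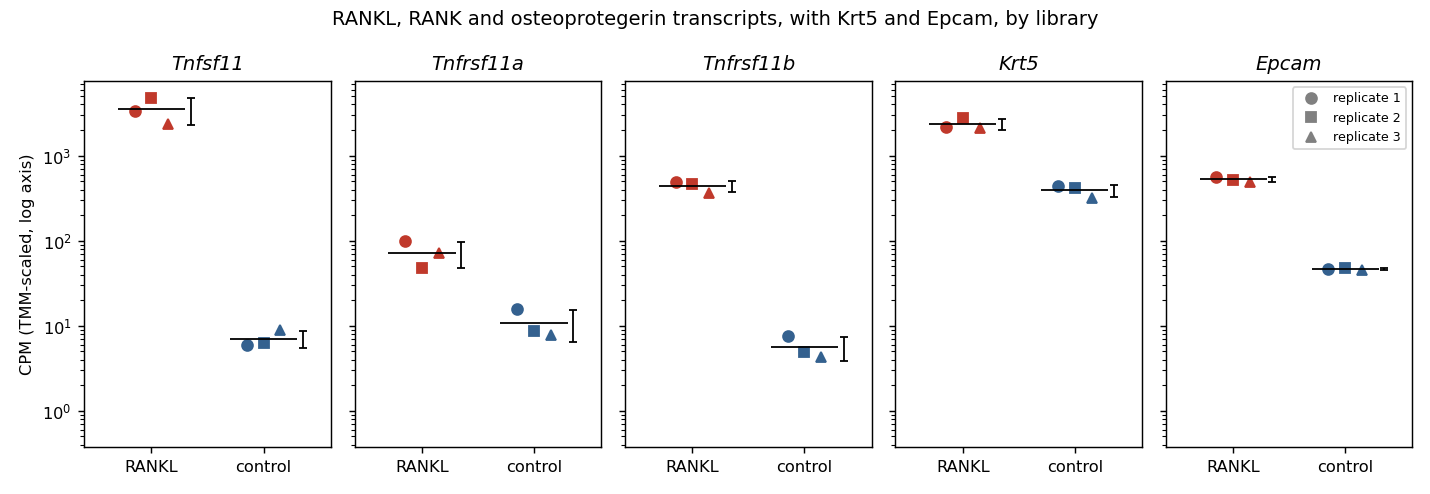
CPM on a log axis for Tnfsf11, Tnfrsf11a, Tnfrsf11b, Krt5 and Epcam in RANKL libraries (red, left) and control libraries (blue, right); point shapes give the replicate, lines the group mean and bars the SD (n = 3 per group). All 5 genes have every RANKL library above every control library, by the widest margin for Tnfsf11 (269-fold) and the narrowest for Tnfrsf11a (3.03-fold).

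Divided by exon length, the 3 transcripts were near one another in controls and far apart in RANKL. CPM per kilobase of exon in RANKL libraries were 1571 ± 546 for Tnfsf11, 155 ± 24.2 for Tnfrsf11b and 12.2 ± 4.22 for Tnfrsf11a (mean ± SD, n = 3). In control libraries they were 3.17 ± 0.70 for Tnfsf11, 2.00 ± 0.61 for Tnfrsf11b and 1.81 ± 0.74 for Tnfrsf11a. The order of means was the same, but in controls the libraries of Tnfrsf11b overlapped those of each other member, and Tnfrsf11b and Tnfrsf11a differed by less than their spread; in control replicate 1 all 3 lay between 2.66 and 2.69. In RANKL no library of one member overlapped those of another. Lengths were exon unions of 2236, 2818 and 5985 bases for Tnfsf11, Tnfrsf11b and Tnfrsf11a. The 1 coding transcript of Tnfrsf11a has 5027 bases, so its order against Tnfrsf11b in control depends on the length used. So does the narrow range of the 3 members in control replicate 1. The length of the transgene's transcript is not stated, so the level of Tnfsf11 in RANKL depends on the length assumed.

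The balance of the 3 transcripts was then read from ratios of counts within a library, whose change between groups does not depend on library scaling. Gene length cancels where both groups count the same transcript, which for the ratios of Tnfsf11 is subject to the unstated length of the transgene's transcript. Tnfsf11 had 6.77, 10.5 and 6.62 reads per read of Tnfrsf11b in RANKL replicates 1, 2 and 3, against 0.792, 1.28 and 2.04 in control replicates 1, 2 and 3. Despite the rise of the decoy receptor, ligand relative to decoy was thus 6.10-fold higher in RANKL, a log2 difference of 2.61 with group SDs of 0.37 in RANKL and 0.68 in control. Per read of Tnfrsf11a, Tnfsf11 had 33.8, 99.7 and 33.6 reads in RANKL and 0.379, 0.724 and 1.13 reads in control, a log2 difference of 6.16. The receptor lost ground to the decoy: Tnfrsf11a had 0.201, 0.105 and 0.197 reads per read of Tnfrsf11b in RANKL, against 2.09, 1.77 and 1.80 in control, a log2 difference of -3.55, or 11.7-fold lower. None of these ratios overlapped between groups. Each gave p = 0.1 in a two-sided exact permutation test, the smallest that 3 libraries against 3 can give, and 0.12 adjusted over the 6 ratios computed, so none could pass 0.05.

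Epithelial genes gave a further point of comparison, because Krt5 is the gene whose promoter drives the activator and Epcam is an adhesion molecule of epithelial cells. Krt5 stood at 2159, 2793 and 2129 CPM in RANKL, against 436, 419.5 and 319.7 CPM in control, so it rose 6.02-fold (log2 fold change 2.59 ± 0.21, edgeR adjusted p = 1.30e-05). Among RANKL libraries, replicate 2 was highest for both Tnfsf11 and Krt5. Tnfsf11 had 1.54, 1.72 and 1.12 reads per Krt5 read in RANKL and 0.0138, 0.0152 and 0.0279 in control, a log2 difference of 6.32, so within RANKL the ratio varied less than the Tnfsf11 level, which ranged 2.01-fold. Epcam stood at 566, 519 and 496 CPM in RANKL, against 46.8, 47.7 and 45.6 CPM in control. Tnfrsf11b rose beyond Epcam, with 0.869, 0.885 and 0.728 reads per Epcam read in RANKL and 0.163, 0.104 and 0.0958 in control, a log2 difference of 2.81 without overlap (exact permutation p = 0.1, the smallest possible). Tnfrsf11a did not: it had 0.174, 0.0929 and 0.144 reads per Epcam read in RANKL and 0.340, 0.184 and 0.172 in control. These values overlapped, with a log2 difference of -0.74 and group SDs of 0.46 in RANKL and 0.54 in control (exact permutation p = 0.2), and the difference was -0.43 without control replicate 1.

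**Figure D2:**
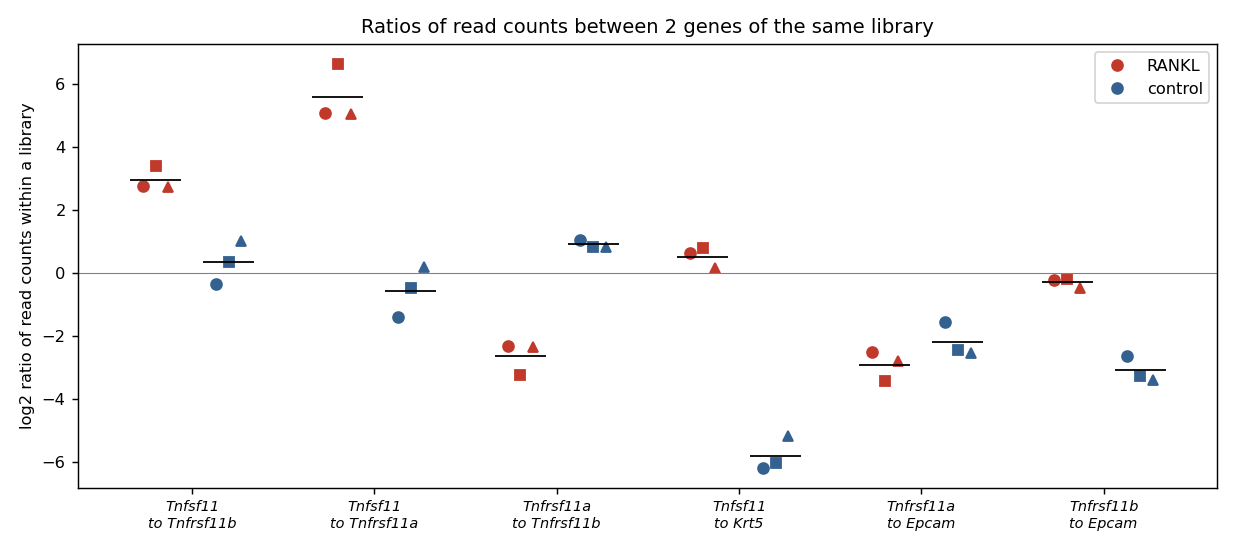
Log2 ratio of read counts of 2 genes within each library, for 6 pairs, in RANKL (red, left of each pair) and control (blue, right); shapes give replicates 1 (circle), 2 (square) and 3 (triangle) and lines the group mean. Groups are apart in 5 pairs and overlap for Tnfrsf11a to Epcam.

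Markers of many cell types moved with these transcripts, and in whole tissue more cells of a type and more RNA per cell cannot be told apart. CPM is also relative to the scaled total of a library, so a fall of other transcripts can raise it. A higher CPM is thus not by itself a larger amount per thymus. Markers of double-positive thymocytes summed to 187 to 851 CPM in RANKL, against 8997 to 10200.9 CPM in control. How far this fall raised the CPM of other genes was not tested. The counts of markers are to be read against the 33.8% of all tested genes called higher and the 29.6% called lower. Of the markers of medullary epithelium, 9 of 9 were higher in RANKL, with a summed level of 4386 to 5791 CPM in RANKL and 563 to 700.5 CPM in control. Much of that sum was keratin: mean Krt5 was 2360 CPM and mean Krt14 995 CPM in RANKL. Epcam and Cldn4 had means of 527 and 516 CPM in RANKL, and Aire, Fezf2 and Cd80 150, 81.9 and 66.1 CPM. The sum thus does not by itself measure medullary epithelium, and which epithelial cells made these transcripts was not tested. Macrophage markers, of a lineage that can carry RANK, were higher in 7 of 7, summing to 2040.0 to 2711 CPM in RANKL and 835 to 1042 CPM in control. Dendritic cell markers were higher in 4 and lower in 2 of 7, at 586 to 851.5 CPM in RANKL and 156.5 to 221 CPM in control. Fibroblast markers, of a lineage that can make osteoprotegerin and RANKL, were higher in 7 of 8. They summed to 2516 to 4814 CPM in RANKL and 389 to 429 CPM in control. Much of that sum was collagen: mean Col1a1 was 1520 CPM in RANKL and 37.7 CPM in control, and Col1a2 1460 and 73.9 CPM. Pdgfra, Pdgfrb and Pi16 rose 4.6-, 4.28- and 3.79-fold, Lum 2.19-fold and Dcn 1.55-fold, and Dpt was not called. Pi16, Lum, Dcn and Dpt are named after their values were seen. Cornified keratinocyte markers were higher in 7 of 7 tested of 8 listed, at 1174 to 3240.0 CPM in RANKL and 40.3 to 60.0 CPM in control, and neutrophil markers in 6 of 6, at 1883 to 4470.2 CPM in RANKL and 15.0 to 35.6 CPM in control.

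Blood endothelial markers were higher in 4 of 6, at 275 to 347 CPM in RANKL and 195 to 255 CPM in control. Of 7 markers of lymphoid tissue inducer and type 3 innate lymphoid cells, known to make RANKL, 5 were higher, 1 lower and 1 not called. Markers of mature single-positive T cells, another known source, were lower in 3 of 7 (42.9%, against 29.6% of all tested genes) and not called in 4, at 327 to 487.5 CPM in RANKL and 512 to 679 CPM in control. Double-positive thymocyte markers were lower in 9 of 9, at 187 to 851 CPM in RANKL and 8997 to 10200.9 CPM in control, and cortical epithelial markers in 7 of 7, at 1008 to 1590.0 CPM in RANKL and 4007 to 5595 CPM in control. B cell markers were called in 0 of 6 by edgeR, with 1 at an unadjusted p under 0.05 and 1 called by DESeq2 and by limma-voom, at 53.7 to 133 CPM in RANKL and 118.5 to 129 CPM in control, and adipocyte markers were lower in 1 of 5, at 435 to 684 CPM in RANKL and 351 to 807 CPM in control. No marker in the table was at 0 in all libraries, the labelled thymus carried its defining thymocyte and cortical markers in control, and the part of any of these cells in the change of the 3 members was not tested.

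The genes with the profiles nearest to each member were then sought. Likeness was measured over the 6 libraries as the root mean square difference between log2 CPM profiles centred on their mean, among 12925 other genes of mean log2 CPM of at least 1. Neighbours were picked on these same values, so patterns they share with a member follow from that choice and are a description only. For Tnfrsf11a the nearest were Hgf (0.0776), Nfasc (0.0953), Sh3tc2 (0.108), Clmn (0.110) and Arnt2 (0.113). Hgf, hepatocyte growth factor, stood at 15.7, 7.60 and 9.80 CPM in RANKL replicates 1, 2 and 3, against 2.43, 1.24 and 1.19 CPM in control replicates 1, 2 and 3. It thus shared with Tnfrsf11a the high RANKL replicate 1, the low RANKL replicate 2 and the high control replicate 1.

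For Tnfrsf11b the nearest were Gjb2, a gap junction connexin (0.238), F10, coagulation factor X (0.319), the kallikreins Klk13 (0.323) and Klk14 (0.359), and Mmp7 (0.345). Gjb2 stood at 368, 456 and 386 CPM in RANKL, against 9.60, 4.84 and 5.06 CPM in control, and shared the high control replicate 1. Within RANKL the order differed, as replicate 1 was highest for Tnfrsf11b but lowest for Gjb2. For Tnfsf11 the nearest were Spp1, the secreted matrix protein osteopontin (0.332), Tmprss11g (0.344), Sprr2g (0.535), Sprr2e (0.544) and Csta1 (0.594). Spp1 stood at 1244, 3199 and 1547.5 CPM in RANKL, against 4.27, 2.83 and 4.92 CPM in control, with RANKL replicate 2 again highest. The other 4 had control values near the floor of 3 reads, and Sprr2 and Csta1 belong to families with near-identical copies, so their profiles are uncertain. The 3 members were not one another's nearest genes: Tnfrsf11b was 65th and Tnfrsf11a 968th for Tnfsf11. Profiles were not scaled for the size of the change, so the unlike fold changes of the members largely set these ranks. The ranks thus do not show whether the members vary together within a group.

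**Figure D3:**
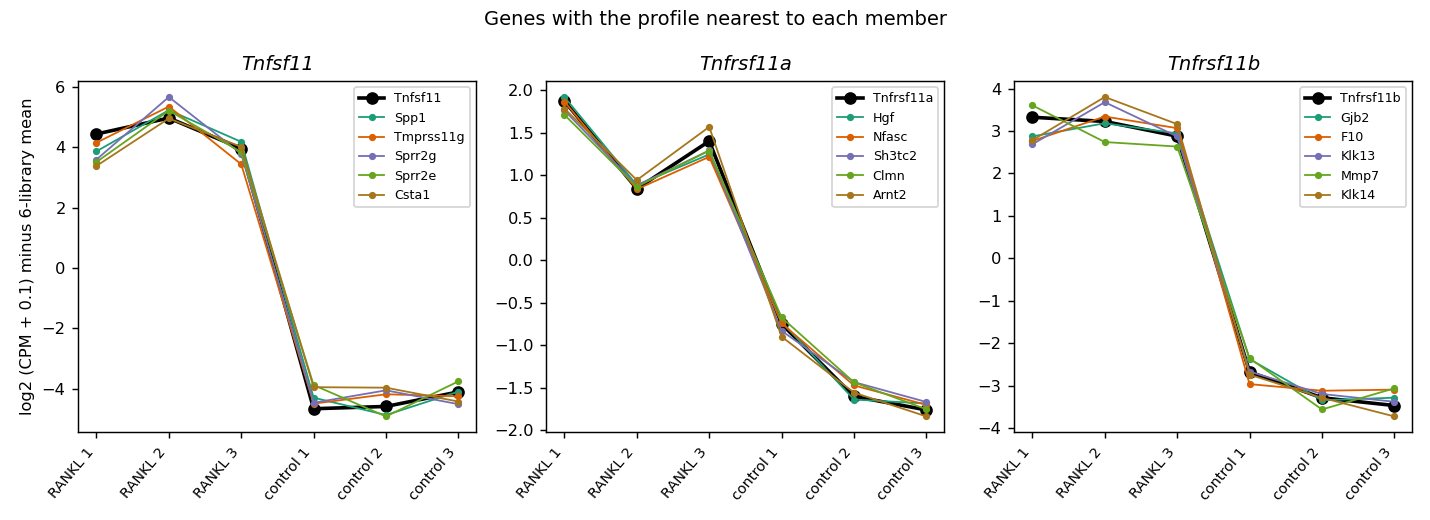
Log2 CPM (0.1 added) minus the 6-library mean for each member (black) and its 5 nearest genes (colours) in RANKL libraries 1 to 3 and control libraries 1 to 3; lines only join the values of a gene. The Tnfrsf11a neighbours lie within 0.113 of it by root mean square, those of Tnfsf11 between 0.332 and 0.594.

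Within the TNF superfamily, 30 of 46 tested ligand and receptor genes (65.2%) were higher in RANKL, against 33.8% of all tested genes, and 6 (13.0%) were lower, against 29.6%. By log2 fold change Tnfsf11 ranked 1st, Tnfrsf11b 2nd and Tnfrsf11a 7th. Per base of exon union, Tnfrsf11b had the highest level of 28 receptor genes in RANKL, where it ranked 1st, against 21st in control.

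**Figure D4:**
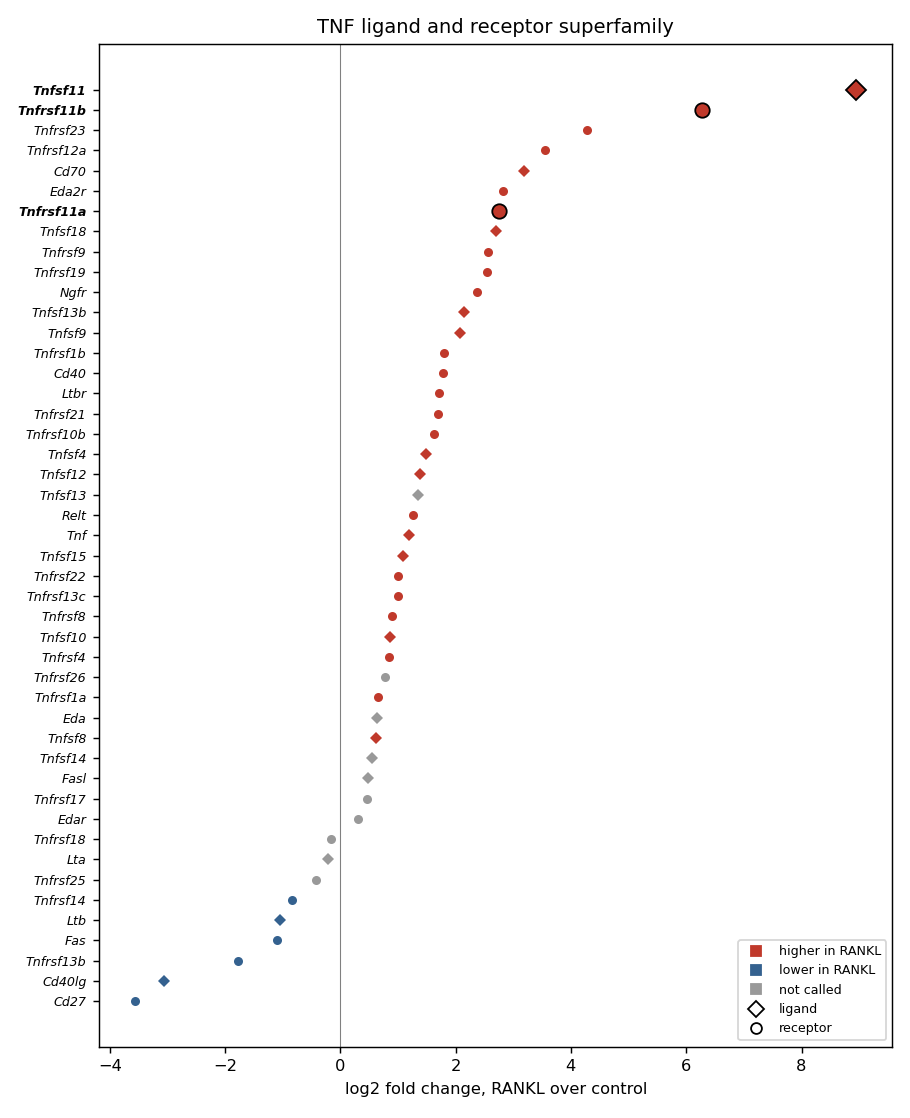
Log2 fold change, RANKL over control, of 46 tested TNF superfamily genes, ordered by value; diamonds are ligands, circles receptors, red higher, blue lower and grey not called, with black outlines on Tnfsf11, Tnfrsf11b and Tnfrsf11a. These 3 lie at 8.95, 6.28 and 2.75, ranks 1, 2 and 7.

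Lists of genes around the axis are likewise to be read against 33.8% of all tested genes called higher and 29.6% called lower. Genes that act with the axis outside the cell mostly rose. Of 11 other binding partners and sheddases, 10 were higher in RANKL and 1 was not called, with a median log2 fold change of 1.62, against -0.02 over all genes tested. The enzymes that can cut RANKL from the membrane included Mmp7, at 40.2 ± 15.9 CPM in RANKL and 0.544 ± 0.273 CPM in control, Mmp14, which rose 6.77-fold, and Mmp3, with a log2 fold change of 3.84 ± 0.36. Sdc1, a heparan sulfate proteoglycan that binds osteoprotegerin, rose 9.20-fold. Adam17, a sheddase, was not called, at a log2 fold change of 0.41 ± 0.18. Named after their values were seen, Lgr4, described as a second receptor of RANKL, rose 3.52-fold, and Tnfsf10, the ligand TRAIL that osteoprotegerin also binds, rose 1.81-fold.

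Of 7 genes of other ligand and receptor pairs that act on medullary epithelium, 2 were higher, 3 lower and 2 not called. The receptors Ltbr and Cd40 were higher, at 108 ± 14.4 and 85.6 ± 24.4 CPM in RANKL, against 32.9 ± 4.39 and 24.8 ± 4.34 CPM in control. Their ligands Ltb and Cd40lg, made mainly by lymphocytes, were lower, with log2 fold changes of -1.04 ± 0.20 and -3.07 ± 0.46, as was the receptor Tnfrsf14, at -0.83 ± 0.26. Lta and Tnfsf14 were not called, at -0.22 and 0.55. The median of the 7 was -0.22.

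Inside the cell, changes were smaller and mixed. Of 22 adaptors and kinases of RANK signalling, 10 were higher (45.5%, against 33.8% of all tested genes), 6 lower (27.3%, against 29.6%) and 6 not called, with a median log2 fold change of 0.31. These shares are near those of all tested genes and do not set the list apart. Those with the smallest p were Fcer1g, Trem2 and Tyrobp, receptors and adaptors of myeloid cells that assist RANK in osteoclasts, at 2.68 ± 0.20, 3.24 ± 0.25 and 1.97 ± 0.18, and the kinase Src, at 2.44 ± 0.24. Traf6, the adaptor most tied to RANK, and Cbl, a ubiquitin ligase, were lower, at -0.61 ± 0.22 and -2.89 ± 0.39; both are named after their values were seen. Of 12 NF-kB subunits and feedback inhibitors, 6 were higher and 6 not called, with a median of 0.55. Nfkb2 and Relb, subunits of the alternative arm, stood at 267 ± 35.5 and 137 ± 27.8 CPM in RANKL, against 78.8 ± 16.4 and 49.2 ± 7.76 CPM in control. Bcl3 rose 4.74-fold and Nfkbiz had a log2 fold change of 1.53 ± 0.27, and of the classical arm Nfkb1 was higher, at 0.45 ± 0.17, and Rela was not called, at 0.14 ± 0.17; the last 2 are named after their values were seen.

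Known downstream genes moved further. All 11 genes listed as RANK-dependent in epithelium were higher, with a median log2 fold change of 3.85. Those with the smallest p were Gp2, the bacterial uptake receptor of microfold cells, the chemokines Ccl9 and Ccl6, and Tnfaip2. Aire, Fezf2 and Cd80 are also among the medullary epithelial markers above, so they were counted in both lists. Neutrophil and macrophage markers rose in the same libraries, and which cells made these transcripts was not tested. Gp2 stood at 206, 147 and 169 CPM in RANKL, against 7.70, 7.63 and 5.69 CPM in control. Ccl6 stood at 585, 1216.5 and 721 CPM in RANKL, against 13.8, 14.6 and 11.6 CPM in control. Of 12 osteoclast genes, 11 were tested and 8 were higher, 2 lower and 1 not called, with a median of 2.38. Dcstamp, needed for osteoclast fusion, stood at 23.3 ± 3.37 CPM in RANKL and 0.609 ± 0.142 CPM in control. The protease Ctsk, the proton pump subunit Atp6v0d2 and the fusion gene Ocstamp had log2 fold changes of 3.35 ± 0.25, 3.36 ± 0.28 and 6.31 ± 0.53. Control values of Ocstamp, 0.0478 to 0.158 CPM, lay at or below the floor of 3 reads, so the size of its change is uncertain. Nfatc1, the master transcription factor of osteoclasts, which T cells also use, was lower, at a log2 fold change of -1.09 ± 0.20, as was Car2, at -0.73 ± 0.19; Acp5 was not called, at 0.28, and Oscar was too low to test.

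Of 14 genes known from bone to regulate Tnfsf11 or Tnfrsf11b transcription, 11 were higher, 2 lower and 1 not called, with a median log2 fold change of 2.38. Il1b, an inflammatory cytokine, stood at 144, 585 and 334 CPM in RANKL, against 6.70, 4.28 and 3.54 CPM in control. Osm, a cytokine of the interleukin 6 family, had a log2 fold change of 3.72 ± 0.45, and Vdr, the vitamin D receptor, stood at 118 ± 19.3 CPM in RANKL and 14.8 ± 6.50 CPM in control. Nr3c1, the glucocorticoid receptor, and Ptger4, a prostaglandin E2 receptor, were lower, at -1.62 ± 0.19 and -0.70 ± 0.19, and Tgfb1 was not called, at 0.07.

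**Figure D5:**
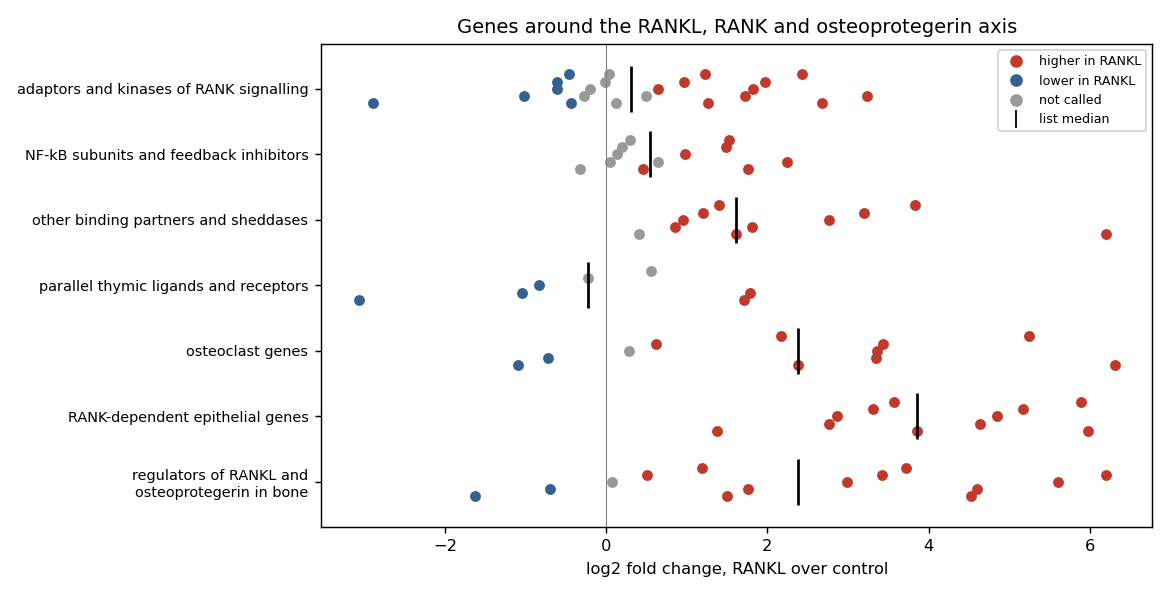
Log2 fold change, RANKL over control, of each tested gene in 7 lists around the RANKL, RANK and osteoprotegerin axis; red is higher, blue lower, grey not called, and black lines are list medians. Medians run from -0.22 for parallel thymic ligands and receptors to 3.85 for RANK-dependent epithelial genes.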

How the data were processed

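The values deposited by the authors are unnormalized read counts for each gene in each library; stranded mRNA libraries were made from total RNA, per the labels' protocols, and STAR with mm10 was used, per the submitters' processing notes. Not given in the sources used here: versions, the counter, any use of strand and the gene annotation. Of 24054 genes, 3257 had 0 reads throughout. Libraries of a group differed beyond sampling noise (33.7 to 72.0 as chi-square over its degrees of freedom) and were kept as replicates, numbered in accession order.

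Genes passing filterByExpr were scaled by TMM and tested with the robust quasi-likelihood test of edgeR 4.0.16 (R 4.3.3), two-sided, no covariate, Benjamini-Hochberg over 16096 genes, threshold 0.05, after the code was tested on simulated data. CPM uses TMM-scaled totals, and standard errors derive from the F statistic. Ratios added 0.5 to each count and used SciPy 1.17.1. Exon lengths came from GENCODE M21. The members and all lists (176 genes, 175 in the table after matching older symbols, 174 tested) were chosen with earlier results of these data known. For the innate lymphoid list, 1 marker and the summed level are not reported here. Named were the members, Krt5, Epcam, up to 4 genes a list by smallest p, members moving against a list where 4 or fewer, and the 5 genes nearest each member, predicted genes and pseudogenes excepted. Alternatives were other scalings and filters, DESeq2 1.42.0, limma-voom (limma 3.58.1), a title-number block, a threshold of 0.01 and each library left out. Figures used matplotlib 3.10.9.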

Additional observations from a re-analysis of the deposited data

How the results depend on the processing

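The counts of higher and lower genes stayed within 1.5 times, and the 3 fold changes kept their direction and their side of the threshold, in each of 80 recalculations. The 6 ratios kept their direction in each of 48, but their exact p could not fall below 0.1, or 0.2 with a library left out, so their side of the threshold was fixed by the design. With 1 library left out the log2 fold change ran from 8.66 to 9.19 for Tnfsf11, from 2.51 to 3.11 for Tnfrsf11a and from 6.11 to 6.53 for Tnfrsf11b, and the log2 ratio difference from 2.27 to 2.95 for Tnfsf11 to Tnfrsf11b and from -3.71 to -3.24 for Tnfrsf11a to Tnfrsf11b. The largest adjusted p of any member under any alternative was 0.00139, for Tnfrsf11a without control replicate 2. Upper-quartile factors moved the median of all tested genes by 0.102 on the log2 scale and the members with it, to 9.05, 2.86 and 6.39, and testing without a filter moved that median by 0.135. No paired analysis was possible because replicate numbers followed accession order. Blocking on title-number range gave 8.85, 2.80 and 6.31, but control replicate 2 was alone in its block and added nothing to that contrast. Depth limits all 3 members in control, at 91 to 302 reads a library.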
